A study of Rattus norvegicus with 12 samples.

Results

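The cytosolic ribosomal proteins were followed across the ventricles of neonatal rats with and without volume overload (VO). Members were the protein-coding rows of the deposited expression table whose gene name begins with Rpl or Rps and a number, or is Rplp0, Rplp1, Rplp2 or Rpsa, leaving out the Rps6k kinases. The rule took 113 of 32545 rows, and it used names only, no measured value. Free wall myocardium of the left ventricle (LV) or right ventricle (RV) came from Sprague–Dawley rats (SD in the labels) operated on at postnatal day 1 and examined at postnatal day 7. Each ventricle was taken from sham and from VO rats, which makes 4 groups (sham LV and VO LV, sham RV and VO RV) of 3 libraries. VO was made surgically, through a needle-made fistula that joins the abdominal aorta to the inferior vena cava, and sham rats had the operation without it. The labels do not say whether the 3 libraries of a group came from separate animals, nor whether an LV and an RV library share one, so the p values below measure only the spread between these libraries, which may be technical.

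The cytosolic ribosome is built from a large and a small subunit, each a scaffold of ribosomal RNA decorated with one copy of most ribosomal proteins, which carry the prefixes Rpl and Rps. The mRNAs of these proteins are short, abundant and, in mammals, mostly begin with a 5′ terminal oligopyrimidine (TOP) tract, a C followed by a run of pyrimidines through which growth signals acting on mTOR and LARP1 set how strongly they are translated. The heart of a newborn rodent grows first by division and then by enlargement of its cardiomyocytes, and ribosome content is one of the limits on that growth.

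The starts of some of these genes show the TOP tract. Printed here, as far as a sequence was matched, are the 8 highest members, the called members, the long row of Rpl11, Rps27 and Rpl31, which are described further on for 1 library, and the paralogs with restricted or lower expression. Promoters of 54 member rows could be matched by symbol to the RefSeq table of rat build GRCr8. Each line gives 15 bases before and 15 bases from the annotated start, 5′ to 3′ on the gene's strand, and capitals mark a C followed by at least 4 pyrimidines that begins within 5 bases of that start.
Rplp0 (chr12:46718376-46718405, minus strand): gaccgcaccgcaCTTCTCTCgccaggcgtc
Rplp1 (chr8:71290858-71290887, minus strand): gcaggcgcatgtgatCCTTTCCTCagctgc
Rps18 (chr20:4933730-4933759, plus strand): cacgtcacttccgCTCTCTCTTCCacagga
Rps15 (chr7:10068101-10068130, minus strand): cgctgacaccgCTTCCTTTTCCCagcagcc
Rpl36 (chr9:1533765-1533794, plus strand): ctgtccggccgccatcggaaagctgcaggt
Rpl13a (chr1:104748899-104748928, minus strand): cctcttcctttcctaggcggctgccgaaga
Rps28 (chr7:15311319-15311348, minus strand): gcatcccctgctcacgtgaCTCCTCTCCgc
Rpl37a (chr9:81748076-81748105, plus strand): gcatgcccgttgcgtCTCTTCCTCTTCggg
Rpl31 (chr9:49143096-49143125, plus strand): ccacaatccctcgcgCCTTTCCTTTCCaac
Rps27 (chr2:177964592-177964621, minus strand): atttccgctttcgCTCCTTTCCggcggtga
Rpl26 (chr10:54109677-54109706, plus strand): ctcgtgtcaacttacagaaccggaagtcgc
Rpl41 (chr7:1563483-1563512, minus strand): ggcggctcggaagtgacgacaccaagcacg
Rpl11 (chr5:153560788-153560817, minus strand): ggggacttgaagcttgtttggtgctgggga
Rps27l (chr8:76443643-76443672, plus strand): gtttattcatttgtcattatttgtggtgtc
Rpl3l (chr10:14258431-14258460, plus strand): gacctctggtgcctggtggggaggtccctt
Rpl22l1 (chr2:113683181-113683210, plus strand): gctccgtggatatccggttccgagttgcgc
Rpl7l1 (chr9:21695703-21695732, plus strand): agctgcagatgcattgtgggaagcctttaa
The tract was present in 29 of 54 matched member rows (53.7%) and in 29 of the 48 matched rows that lead their protein (60.4%), against 17.0% of all 33469 promoters in the table and 17.7% of those of the tested genes. Of the rows printed, no such run began within 5 bases of the start in Rpl36, Rpl13a, Rpl26, Rpl41, Rpl11 and the paralogs Rps27l, Rpl3l, Rpl22l1 and Rpl7l1. The letters CTTCCG or CGGAAG, the core of sites bound by ETS factors, stood within the 300 bases from 250 before to 50 after the start in 56.3% of the leading rows, against 16.6% of all promoters and 29.7% of those of the tested genes. TATAAA, on either strand, was in 10.4% of the leading rows, 14.2% of all promoters and 7.01% of those of the tested genes. CTTCCG can overlap the end of a TOP tract, so both patterns can count some of the same letters.

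FPKM (fragments scaled by gene length and by library depth) allow levels to be compared between genes. Of the 77 ribosomal proteins whose usual symbol the rule could find, 68 have a row, and the highest row of each symbol is called its principal row here. The other 45 rows are 20 further rows of a symbol already listed, 17 paralogs or like-named genes, 7 rows named as pseudogenes, and Rps19bp1, which encodes a protein that binds a ribosomal protein and is not one itself. The symbols Rpl10, Rpl21, Rpl22, Rpl36a, Rps9, Rps12, Rps13, Rps21 and Rps26 were not analysed here. No intron, so that the gene's span equals its annotated length, was seen in 33 member rows, 29 of which were not principal. Nearly identical copies can share reads, so single rows of such families are uncertain. Whether reads were shared here was not tested.

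Ribosomal protein mRNA was among the most abundant in the myocardium. The 65 principal rows that passed a mean of 0.5 FPKM had a median level of 611 FPKM, against 7.98 FPKM over all 13910 tested genes, and 59 of them reached 100 FPKM and 44 reached 500 FPKM. The 8 principal rows above 1000 FPKM were Rps29, Rpl41, Rpl36, Rplp1, Rplp0, Rpl13a, Rps18 and Rps15. Rps29, a zinc-binding protein of the small subunit, led with a mean of 1405 FPKM, and Rpl41, the smallest protein of the large subunit, followed with 1382 FPKM. Rplp0 and Rplp1, which form the stalk that recruits elongation factors, stood at 1155 and 1160 FPKM. Principal rows held 96.5% of the summed FPKM of all members, and rows without introns held 2.81%.

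A few proteins that every ribosome needs were listed at very low values. The row of Rps6, the small-subunit protein phosphorylated by S6 kinases, had a mean of 10.4 FPKM, that of Rpl8 16.4 FPKM, that of Rpl35a 10.5 FPKM, that of Rpl38 4.04 FPKM and that of Rplp2, the partner of Rplp1 in the stalk, 0.258 FPKM. Rpl10a and Rpl23a were listed at 0 in all 12 libraries. These proteins are part of every ribosome, so their rows are not read here as levels of the mRNA, and what sets them that low was not tested. Counting the 3 members listed at 0 (Rpl31l3 is the other), 14 member rows were under 0.5 FPKM and were not tested, which left 99.

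The paralogs with restricted expression were far below their partners. Rpl3l, the striated-muscle form of Rpl3, had a mean of 1.05 FPKM against 511 FPKM for Rpl3, and Rpl39l, best known from testis, had 1.22 FPKM against 650 FPKM for Rpl39. Rps27l, a p53-responsive paralog, had 82.5 FPKM against 649 FPKM for Rps27, and Rpl7l1 had 37.7 FPKM against 130 FPKM for Rpl7. Rpl22l1 had 71.1 FPKM, Rpl10l 27.5 FPKM and Rpl36al 249 FPKM, each without a row of its partner to set beside it. In the libraries, Rpl3l was at 1.11, 0.687 and 1.71 FPKM in sham LV, at 0.405, 1.26 and 1.05 in sham RV, at 1.10, 1.43 and 1.61 in VO LV and at 1.495, 0.538 and 0.226 in VO RV. All 4 groups overlapped, so no order of the groups can be read for Rpl3l.

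Some libraries stood apart. The recovered reads numbered 14121713 to 16871371 a library, and transcripts of the mitochondrial genome took 22.2% of FPKM in sham LV replicate 2 against 27.0 to 38.9% in the other 11 libraries. Atrial markers summed to 4559 FPKM in VO RV replicate 2 against 212 to 1729 FPKM elsewhere, where cardiomyocyte markers were also lowest, at 16019 FPKM against 19332 to 26022 FPKM. All 7 cardiomyocyte markers were above 0 in every library (Tnnt2, the cardiac troponin T, at 3411 FPKM or more), as the labelled tissue requires, and the 5 T cell markers summed to under 1 FPKM.

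The proportions among the 65 principal rows were nearly constant, with 1 exception. When each library's ribosomal protein rows were centred on their own median, between 52 and 62 of the 65 rows lay within 0.2 log2 units of their average position in 11 libraries, and 1 to 5 rows lay beyond 0.5. In sham LV replicate 2 only 29 rows lay within 0.2 and 17 lay beyond 0.5, 9 below and 8 above. The SD over the rows was 0.52 log2 units there and 0.11 to 0.28 in the others.

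The rows that were out of proportion in sham LV replicate 2 were mostly abundant ones. Rpl31, a large-subunit protein near the exit of the peptide tunnel, was at 58.2 FPKM in that library and at 279 and 301 FPKM in the other sham LV libraries. Rps27 was at 245 FPKM against 858 and 854 FPKM, Rpl39 at 321 against 757 and 928 FPKM, and Rpl36 at 597 against 1524 and 1484 FPKM. In the other direction, Rpl41 was at 2488 FPKM against 1370 and 1560, and Rpl13a, a protein that is also released from the ribosome to silence inflammatory mRNAs, was at 1810 against 1116 and 1234 FPKM. These rows therefore have wide errors in sham LV, for example 213 ± 134 FPKM for Rpl31 (SD, n = 3). What set the library apart was not tested.

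Outside that library, a few rows stayed unstable. Rpl7a varied with an SD of 0.79 log2 units around the members' median, Rpl38 with 0.65, Rpl35a with 0.52, Rpl17 with 0.51 and Rps19 with 0.51 (11 libraries). Rpl38 and Rpl35a are among the rows too low to be read as levels of the mRNA. Rpl23 varied by only 0.04 over the same libraries. For Rps27a, made as a fusion with ubiquitin, the coefficient of variation over the 12 libraries was 35.98% for its own row and 16.4% when the pseudogene-named row Rps27a-ps1 was added. For Rpl7a adding its second row left the variation at 51.1%, close to the 56.1% of the leading row.

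**Figure D1:**
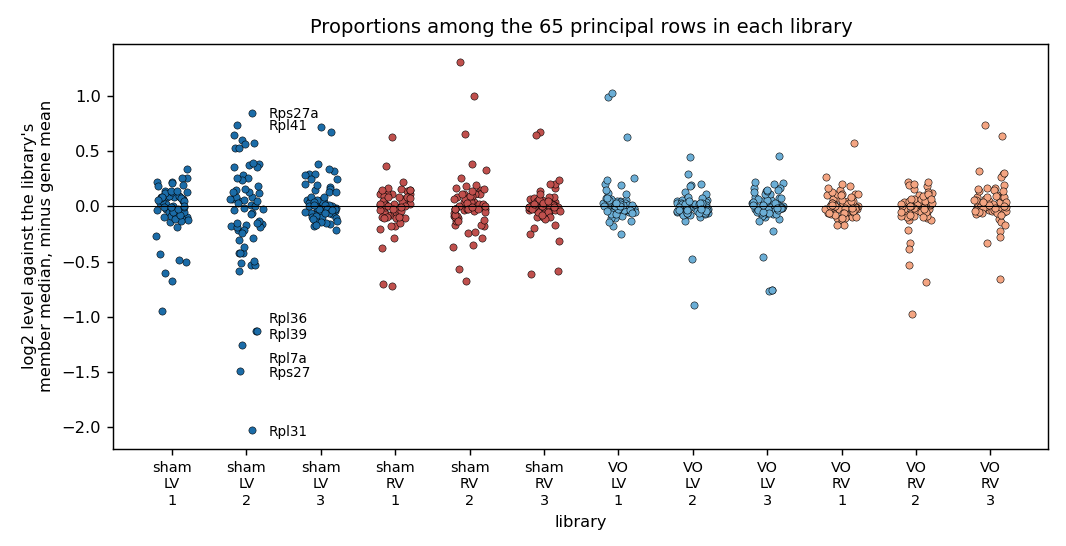
Each point is 1 of the 65 principal rows in 1 library, and the y axis gives its log2 level relative to the median of the ribosomal protein rows of that library, minus its mean over the 12 libraries. The points of sham LV replicate 2 spread from −2.02 (Rpl31) to 0.85 (Rps27a), and 17 of them lie beyond 0.5, against 1 to 5 in every other library.

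As a share of the library, ribosomal protein mRNA depended on what it was set against. Of all FPKM, members took 6.40% ± 0.818 in the sham LV and 5.62% ± 0.0891 in the VO LV, and 5.71% ± 0.321 in the sham RV and 6.39% ± 0.199 in the VO RV (SD, n = 3). The share in sham LV replicate 2 was 7.33%, above the 5.79 and 6.08% of the other sham LV libraries. Of the FPKM of nuclear protein-coding genes alone, which leaves the mitochondrial transcripts out, they took 9.68 to 9.77% in the sham LV and 7.998 to 8.53% in the VO LV, and 8.40 to 9.01% in the sham RV and 9.16 to 10.4% in the VO RV. On that scale the sham LV range lay above the sham RV and VO LV ranges, and the VO RV range above the sham RV range. In bulk tissue, fewer cells of a type and less RNA per cell cannot be told apart.

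The member median moved with group in the same way on a log scale. With each row centred on its mean over the 12 libraries, the median of the 99 tested rows was 0.12, 0.16 and 0.18 log2 units in the sham LV and −0.04, −0.08 and −0.15 in the VO LV. In the RV it was −0.18, −0.16 and 0.02 with sham and 0.10, −0.12 and 0.20 with VO. The 3 sham LV libraries thus lay above all sham RV and VO LV libraries, while VO RV replicate 2 lay within the sham RV range. Genes that are no member but are up to 500 bases long ran alongside, at 0.09, 0.24 and 0.13 in the sham LV, 0.01, 0.01 and −0.11 in the VO LV, −0.13, −0.08 and 0.02 in the sham RV and 0.06, −0.10 and 0.14 in the VO RV.

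**Figure D2:**
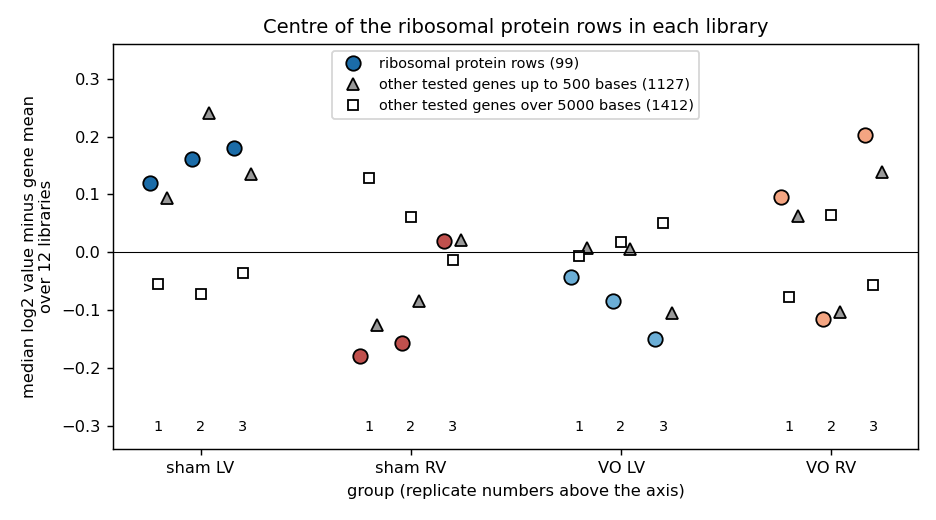
Circles give the median log2 level, relative to each gene's mean over the 12 libraries, of the 99 tested ribosomal protein rows in each library. Triangles give the same for other tested genes up to 500 bases and squares for those over 5000 bases. Circles and triangles lie above 0 and squares below it in the 3 sham LV libraries and in VO RV replicates 1 and 3. The same signs hold near 0 in sham RV replicate 3, at 0.02, 0.02 and −0.01.

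The first comparison asks how the normal neonatal LV and RV differ. Ribosomal protein rows were mostly higher in sham LV: 86 of 99 had a positive log2 fold change against sham RV, against 51.6% of all tested genes, and their median was 0.25 log2 units against 0.01 over all tested genes. The positive rows numbered 64 when each library's trend with gene length was removed and 70 after quantile normalization. The groups did not overlap for 35 rows with sham LV higher and for 1, Rpl7l1, with sham LV lower, against 15.6% and 16.6% of all tested genes. A row was called where limma's p, adjusted by Benjamini-Hochberg over all tested genes, was under 0.05 and the fold exceeded 1.3. By this rule 6 rows were higher and 0 lower, against 1.51% and 2.35% of all tested genes. With the unadjusted p in its place the counts were 19 and 0, against 8.19% and 9.63%, and they were 10 and 2 with the length trend removed and 12 and 0 after quantile normalization. In both directions together, 12 of 99 members passed in each of these 2 settings. That is a smaller share than the 2350 and 2474 of 13910 tested genes. The 6 were Rps28, Rps29, Rpl37, Rpl37a, Rpl26 and Rps27l.

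Rps28, a small-subunit protein at the mRNA exit, was at 288, 408 and 322 FPKM in the sham LV but at 199.5, 140 and 223 FPKM in the sham RV. All sham LV libraries lay above all sham RV libraries, and its log2 fold change of 0.86 (SE 0.19, adjusted p = 0.0387) was the largest of the 6. Rps29 was at 1754, 1585 and 1722 FPKM against 1009, 1047 and 1177 FPKM, again without overlap, with a log2 fold change of 0.65 (SE 0.12, adjusted p = 0.0325).

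Rpl37 and Rpl37a, zinc-binding proteins of the large subunit, were higher as well. Rpl37 was at 195, 218 and 230 FPKM in the sham LV but at 134, 132 and 141 FPKM in the sham RV (0.65, SE 0.11, adjusted p = 0.0319), and its principal row has no intron. Rpl37a was at 329, 426 and 335 FPKM against 243, 247 and 272 FPKM (0.51, SE 0.12, adjusted p = 0.0432). Neither overlapped between the groups, and for Rpl37a replicate 2 was the highest library.

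Rpl26, which binds near the tunnel exit and also the mRNA of p53, was at 551, 530 and 472 FPKM in the sham LV but at 343, 392 and 411 FPKM in the sham RV (0.44, SE 0.11, adjusted p = 0.0493). Rps27l was at 88.9, 95.7 and 108 FPKM against 62.5, 67.2 and 82.3 FPKM (0.46, SE 0.11, adjusted p = 0.0439). Both were without overlap, and both lay close to the threshold. The exact two-sided permutation p was 0.1 for each of the 6 rows, the smallest that 3 libraries against 3 allow. Their calls depended on single libraries: 0 members passed without sham LV replicate 1 or 2, sham RV replicate 1 or 2, or VO LV replicate 2, which is outside the comparison but shares the estimate of the spread, 2 passed without sham LV replicate 3 or VO LV replicate 1, and 3 without VO LV replicate 3. The calls over all tested genes fell with them, from 537 to between 0 and 5 in the fits where 0 members passed. They numbered 420 without sham LV replicate 3, 173 without VO LV replicate 1 and 453 without VO LV replicate 3. When all genes above 0 were tested, 0 members passed (smallest adjusted p = 0.0616), as did 8 of 21603 genes in all.

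The proteins with roles in growth control showed smaller differences that missed the threshold. Rpl5 and Rpl11, which together with 5S RNA hold back MDM2 when ribosome assembly fails, had log2 fold changes of 0.25 (adjusted p = 0.130) and 0.36 (adjusted p = 0.110). Rpl23, another MDM2 binder, had 0.27 (adjusted p = 0.127), Rps3, also a DNA repair enzyme, 0.29 (adjusted p = 0.185) and Rps14, the protein lost in 5q- syndrome, 0.34 (adjusted p = 0.162). Rpl13a had 0.41 (adjusted p = 0.172), Rpl7 0.34 (adjusted p = 0.0693) and Rpl22l1 0.40 (adjusted p = 0.0801). Their directions were the same in all 12 fits that left out 1 library, but without sham LV replicate 2 the values of Rpl13a, Rps14 and Rps3 were 0.20, 0.20 and 0.17.

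Among the largest differences with the opposite sign, Rpl7a had −0.80, Rps19, the gene most often mutated in Diamond-Blackfan anaemia, −0.57, and Rpl39l −0.49, none past the threshold. Rps19 was at 134, 205 and 317 FPKM in sham LV and 235.1, 426 and 283 FPKM in sham RV, so its groups overlapped. With 1 library left out, Rpl7a was −1.34 when sham LV replicate 3 was absent, −0.37 when sham LV replicate 2 was absent and −0.50 when sham RV replicate 2 was absent. Rps19, for its part, was −0.88 when sham LV replicate 3 was absent, −0.26 when sham LV replicate 1 was absent and −0.33 when sham RV replicate 2 was absent. Rpl39l was −0.92 without sham LV replicate 2, and its sign turned to 0.16 without sham LV replicate 3. The pseudogene-named row Rpl37-ps1 and a further row of Rps29 had the largest positive values among rows of at least 1 FPKM beside Rps28, at 1.06 and 0.96, the latter 0.64 without sham RV replicate 1. The medians were 0.23 over 39 large-subunit and 0.26 over 26 small-subunit principal rows, which were not tested against each other, and the 16 further copies had a median of 0.19.

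**Figure D3:**
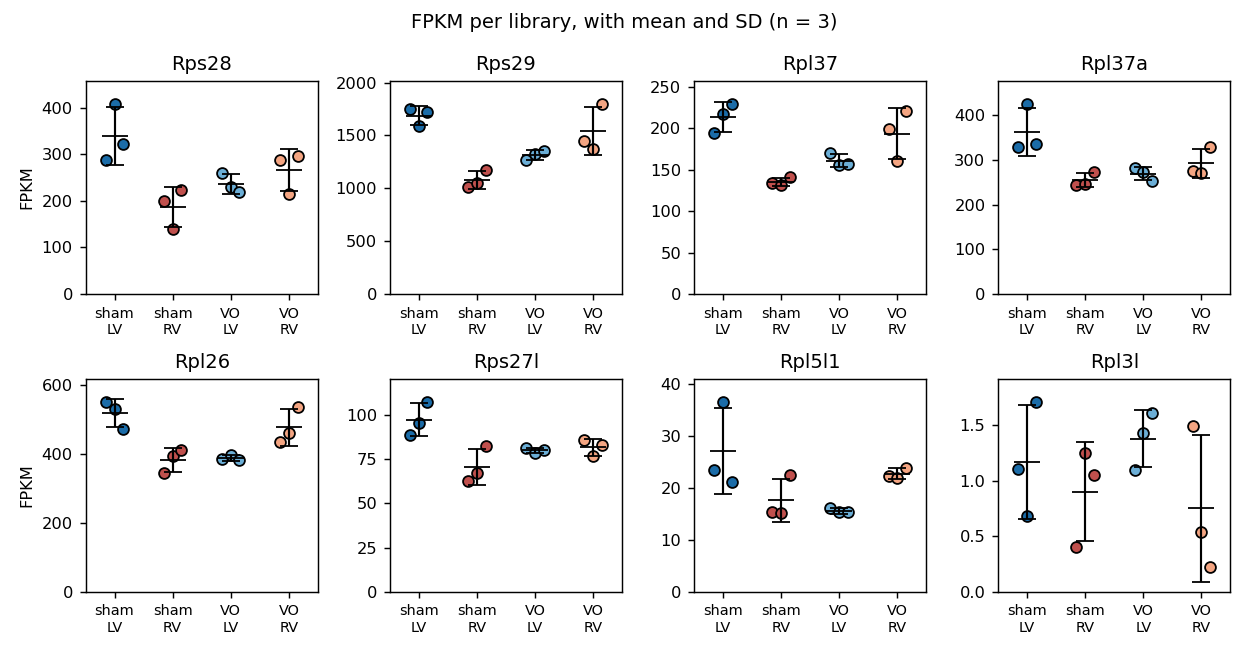
FPKM of 8 rows in every library (points) with the group mean and SD (bars, n = 3), each panel with its own axis from 0. In the 6 rows called in sham LV against sham RV (Rps28, Rps29, Rpl37, Rpl37a, Rpl26, Rps27l) every sham LV point lies above every sham RV point, whereas the 4 groups overlap for Rpl3l.

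The second comparison asks how each ventricle responds to VO. In the LV, ribosomal protein rows were mostly lower with VO: 80 of 99 had a negative log2 fold change against sham LV, against 52.8% of all tested genes, with a median of −0.26 against −0.02. For 47 rows, 41 of them principal, every VO LV library lay below every sham LV library, and for 1 every VO LV library lay above, against 15.7% and 16.7% of all tested genes. By limma 0 members passed, against 0.0216% lower and 0.0719% higher over all tested genes. With the unadjusted p, 17 were lower and 1 higher, against 6.44% and 9.27%, but only 5 were lower with the length trend removed and 7 after quantile normalization, which is near the share of all tested genes. The smallest adjusted p of a member was 0.0714 by limma on log2 FPKM. Calls by voom on the recovered reads also numbered 0 for members, with a smallest adjusted p of 0.0619, against 341 of 13910 tested genes (303 higher and 38 lower). A single member passed without sham LV replicate 3 and a single one without VO RV replicate 3, both lower in VO LV. In those fits 295 of 13909 and 555 of 13914 tested genes passed, 55 and 90 of them lower.

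The row closest to the threshold was Rpl5l1, an intron-less row named after Rpl5, at 23.5, 36.6 and 21.1 FPKM in sham LV and 16.2, 15.3 and 15.3 FPKM in VO LV. The groups did not overlap, sham LV replicate 2 was far above the others, and the log2 fold change was −0.74 (SE 0.19, adjusted p = 0.0714). Rpl26 was at 385, 397 and 382 FPKM in VO LV, a tight group below all 3 sham LV libraries (−0.41, SE 0.11, adjusted p = 0.073).

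The same held for other abundant rows. Rpl37a was at 282, 273 and 254 FPKM in VO LV (−0.42, adjusted p = 0.0838) and Rpl37 at 170, 156 and 157 FPKM (−0.40, adjusted p = 0.0847). Rps29 was at 1267, 1327 and 1356 FPKM (−0.35, adjusted p = 0.127) and Rps28 at 260, 229 and 220 FPKM (−0.51, adjusted p = 0.148). None of these overlapped with sham LV, and none passed.

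Rpl5 was at 721, 722 and 653 FPKM in sham LV and 583, 564 and 555 FPKM in VO LV, without overlap (−0.30, adjusted p = 0.107). Rpl7 was −0.34 (adjusted p = 0.0847), Rpl11 −0.34 (adjusted p = 0.145), Rpl22l1 −0.42 (adjusted p = 0.0926), Rps14 −0.41, Rpl13a −0.40, Rps3 −0.30 and Rpl23 −0.26. Without sham LV replicate 2, Rps14 was −0.27, Rpl13a −0.19 and Rps3 −0.18. The largest positive values belonged to Rpl39l at 1.00, Rpl31 at 0.36 and Rpl35a at 0.33. The value of Rpl31 was −0.40 without sham LV replicate 2, 0.72 without replicate 1 and 0.77 without replicate 3. That of Rpl35a, one of the rows too low to be read as a level of the mRNA, lay between 0.17 (without sham LV replicate 1) and 0.60 (without sham LV replicate 3), and was 0.21 without sham LV replicate 2, 0.18 without VO LV replicate 1 and 0.51 without VO LV replicate 3. Rpl39l was at 1.17, 1.73 and 0 FPKM in sham LV and at 1.86, 2.05 and 1.996 FPKM in VO LV, without overlap but at a level near the filter, and its value was 0.35 without sham LV replicate 3.

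In the RV the sign was the other way. With VO, 83 of 99 rows had a positive log2 fold change against sham RV, against 50.6% of all tested genes, with a median of 0.17 against 0.00. The groups did not overlap for 10 rows with VO RV higher and for 1, again Rpl7l1, with it lower, against 5.64% and 6.87%. By limma 0 members passed in either direction, as did 0% of all tested genes, with 9 higher and 0 lower by the unadjusted p, against 1.85% and 3.06%, and 0 by voom on the recovered reads. The smallest adjusted p of a member was 0.482, for Rpl37.

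The 10 rows without overlap were Rps29, Rplp1, Rplp0, Rpsa, Rpl30, Rpl26, Rpl37, Rps4x, Rpl31l4 and a further row of Rps29, named because of this count. Rpl37 was at 199, 160 and 221 FPKM in VO RV, above the 132 to 141 FPKM of sham RV (0.51, SE 0.11). Rps29 was at 1449, 1373 and 1799 FPKM (0.51, SE 0.12, adjusted p = 0.536). Rpl30, whose yeast counterpart binds its own transcript, was at 617, 534 and 675 FPKM in VO RV and at 502, 308 and 343 FPKM in sham RV, where replicates 2 and 3 were low (0.69, SE 0.17, adjusted p = 0.536). In VO RV replicate 2, the library with atrial markers, the members lay lower than in the other VO RV libraries, and the member median was 0.26 without it and 0.10 without VO RV replicate 3.

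The LV and RV comparisons with VO share no library. A lower level in VO LV together with a higher one in VO RV was found for 71 of 99 members, against 36.4% of all tested genes, and the opposite pair of signs for 7, against 33%. Over the fits that left out 1 library, 66 to 75 members had the first pair of signs. It held for 60 members when each library's trend with gene length was removed and for 61 after quantile normalization, with the opposite pair in 18 and 8.

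**Figure D4:**
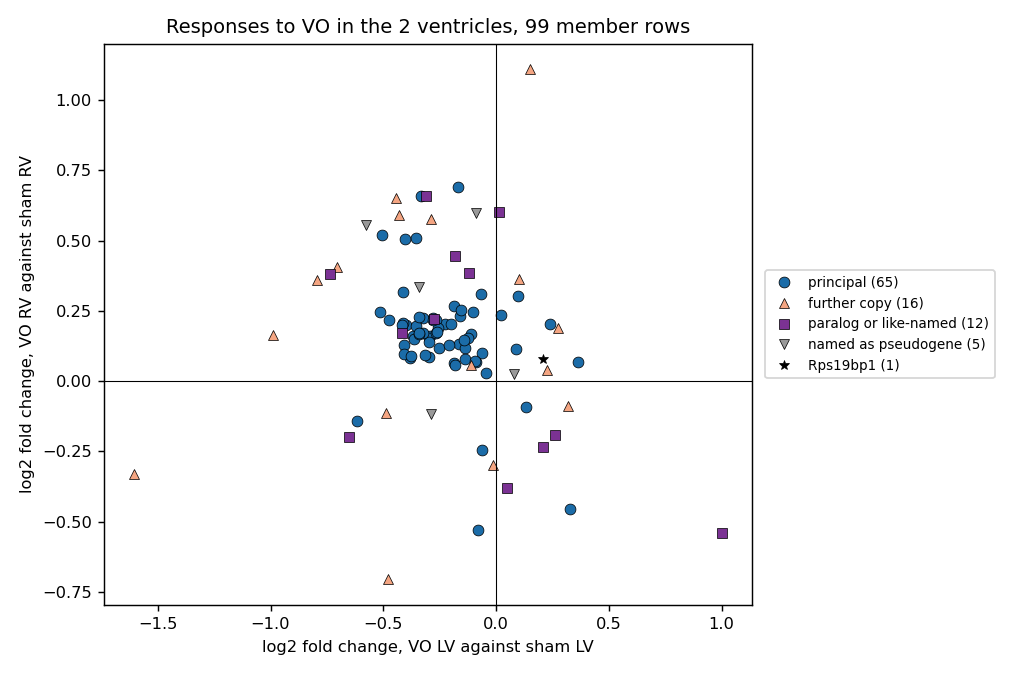
Each point is 1 of the 99 tested rows, with its log2 fold change with VO in the LV on the x axis and in the RV on the y axis, and symbols mark the class of row. Of the 99 points, 71 lie at the upper left (lower in VO LV, higher in VO RV) and 7 at the lower right.

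The third comparison is the difference between these responses, LV minus RV, tested as an interaction in the same model. It shares the sham and VO libraries with the comparisons above. The member median was −0.45 log2 units against −0.04 over all tested genes, with 82 of 99 rows negative and 17 positive, against 53.6% and 46.4%. By limma 4 rows passed with a lower response in the LV and 0 with a higher one, against 0.733% and 3.46% of all tested genes, and by the unadjusted p these counts were 43 and 2, against 9.94% and 13.1%. They were 15 and 3 with the length trend removed, and 20 and 2 after quantile normalization. In both directions together these were 18 and 22 of 99 members, no larger a share than the 3055 and 3203 of 13910 tested genes. The 4 were Rpl37 at −0.91 (SE 0.16, adjusted p = 0.0249), Rps29 at −0.86 (SE 0.17, adjusted p = 0.0315), Rpl26 at −0.73 (SE 0.15, adjusted p = 0.0329) and Rpl5l1 at −1.12 (SE 0.27, adjusted p = 0.0455).

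For each of the 4, VO LV libraries lay below the sham LV ones, and for Rpl37, Rps29 and Rpl26 the VO RV libraries lay above the sham RV ones. Rpl26 was at 433, 459 and 535 FPKM in VO RV, and Rpl5l1 at 22.2, 21.96 and 23.9 FPKM against 15.3, 15.2 and 22.4 FPKM in sham RV. Rps28 had −1.03 and missed the threshold (adjusted p = 0.0543). The counts again rested on single libraries: 0 passed without sham LV replicate 1 or 2, sham RV replicate 1 or 2, or VO LV replicate 2 or 3, 1 passed without VO LV replicate 1 or VO RV replicate 3, 7 passed without sham RV replicate 3, and 17 without VO RV replicate 2. Over all tested genes 583 passed, 0 to 4 in the fits where 0 members passed and 926 without VO RV replicate 2. Without VO LV replicate 1, VO RV replicate 3 and sham RV replicate 3 they numbered 239, 115 and 563. The member median stayed between −0.52 and −0.36 in all 12 of these fits.

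With VO in both, most members were lower in the LV. For VO LV against VO RV the member median was −0.16 against 0.01 over all tested genes, with 84 of 99 rows negative and 15 positive, against 49% and 51% of all tested genes. The median was −0.26 without VO RV replicate 2, whose own member median lay within the VO LV range, and −0.09 without VO RV replicate 3. The groups did not overlap for 20 rows with VO LV lower and 1 with it higher, against 7.69% and 8.45%. By limma 0 members passed, against 0% lower and 0.00719% higher over all tested genes, with 2 lower and 1 higher by the unadjusted p, against 3.56% and 3.85%, and 0 by voom. The row without overlap and with VO LV higher was Rpl39l, at 1.86, 2.05 and 1.996 FPKM against 0.404, 1.006 and 0.732 FPKM (1.05, adjusted p = 0.412), and Rpl3l and Rpl35a had the next values, 0.70 and 0.63. Rpl3l was 0.37 without VO RV replicate 3 and 1.10 without VO RV replicate 1, and Rpl35a was 0.25 without VO RV replicate 2.

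Gene length moved with all of these differences. The principal rows had a median annotated length of 630 bases, against 2166 bases over all tested genes. Among tested genes that are no member, the median log2 fold change of sham LV against sham RV was 0.22 up to 500 bases, 0.17 over 500 and up to 1000, 0.06 up to 2000, −0.02 up to 3000, −0.05 up to 5000 and −0.10 above 5000 bases. For the difference of the responses the same classes gave −0.31, −0.20, −0.09, −0.01, 0.04 and 0.11.

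Principal rows lay further from 0 than the other genes of their length class. In sham LV against sham RV their medians were 0.30 up to 500 bases, 0.22 up to 1000 and 0.17 up to 2000 bases, and in the difference of the responses they were −0.48, −0.39 and −0.39. The 2 principal rows with a long annotation, Rpl11 with 3845 and Rpl7 with 5151 annotated bases, did not follow the other genes of such annotated length. They were at 0.36 and 0.34 in sham LV against sham RV and at −0.51 each in the difference of the responses. The length of the mRNAs present was not measured, and the removal of the trend used the annotated lengths. When each library's trend with length was removed, the member medians were 0.10 between the sham ventricles, −0.14 with VO in the LV, 0.11 with VO in the RV, −0.15 between the VO ventricles and −0.26 for the difference of the responses. Rps28, Rps29, Rpl37 and Rpl37a still passed by limma between the sham ventricles (adjusted p = 0.0459, 0.0459, 0.0361 and 0.0487) and Rpl37 and Rpl26 in the difference of the responses (adjusted p = 0.0309 and 0.0421). Of all 13910 tested genes, 469 and 393 passed in these comparisons with the trend removed. What causes the trend with length was not tested.

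**Figure D5:**
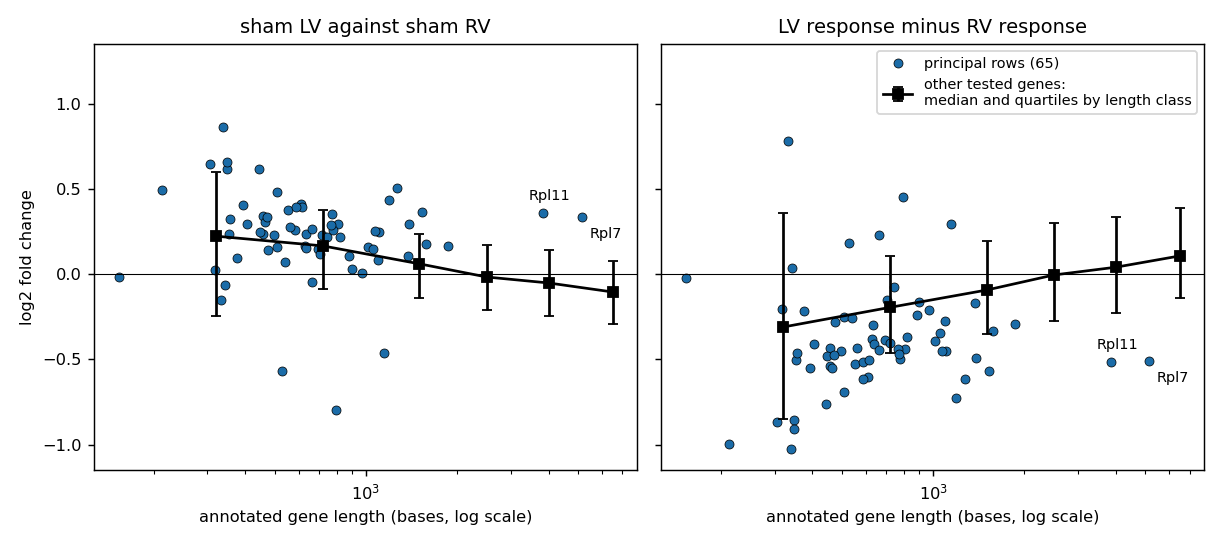
The log2 fold change of the 65 principal rows (circles) against annotated gene length on a log scale, for sham LV against sham RV (left) and for the LV response minus the RV response (right). Squares and bars give the median and quartiles of the other tested genes in 6 length classes, drawn inside each class; their medians fall from 0.22 to −0.10 on the left and climb from −0.31 to 0.11 on the right, and Rpl11 and Rpl7 lie away from that line.

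Members with and without the TOP tract had medians of the same sign, which were not tested against each other. All rows with the tract are principal rows. Those without it include the paralogs Rps27l, Rpl22l1, Rpl7l1 and Rpl3l, and Rps19bp1, so the sets also differ in class of row. In sham LV against sham RV the median was 0.24 over the 28 tested rows with the tract and 0.22 over the 23 matched rows without it, and for the difference of the responses −0.45 and −0.37. The medians with and without the tract were −0.26 and −0.19 with VO in the LV, 0.20 and 0.12 with VO in the RV, and −0.20 and −0.15 for VO LV against VO RV. The 1721 tested genes that are no member but carry the tract had medians of 0.01 between the sham ventricles and −0.05 for the difference of the responses. A missing match says only that no such run began within 5 bases of the annotated start.

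The rest of the translation machinery was described by fixed lists. The 22 tested rows of a list of translation factors built around TOP mRNAs had medians of 0.10 in sham LV against sham RV, −0.05 with VO in the LV, 0.11 with VO in the RV and −0.12 for the difference of the responses. In that last comparison 1 of them was higher, against 3.46% of all tested genes, Eef1a2, the muscle form of elongation factor 1A (1.05, SE 0.26, adjusted p = 0.0491), and 0 of the 22 passed elsewhere. Of 38 other translation factors, with medians of −0.02, 0.02, −0.03 and 0.08, only Eif4g1, the scaffold of the cap-binding complex, passed, against 2.35% of all tested genes lower between the sham ventricles and 3.46% higher in the difference: it was lower in sham LV (−0.89, SE 0.22, adjusted p = 0.0467) and its response was higher in the LV (1.297, SE 0.31, adjusted p = 0.0424).

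The 72 ribosome biogenesis genes, which make and assemble the subunits, had medians of 0.07, −0.10, 0.05 and −0.16, the same signs as the ribosomal proteins, and 0 of them passed in any comparison by limma. With the length trend removed, their medians were 0.07 between the sham ventricles and −0.10 with VO in the LV, against 0.10 and −0.14 for the ribosomal proteins. Among 33 genes that control ribosomal protein mRNAs and growth, with medians near 0 (−0.03, 0.05, 0.00 and 0.05), 2 (against 2.35% of all tested genes) were lower in the sham LV, Eif4ebp2, a translation repressor (−0.96, adjusted p = 0.0432), and Rptor, the mTORC1 subunit raptor (−0.40, adjusted p = 0.0442). In the difference of the responses 4 were higher, against 3.46%, Eif4ebp2 at 1.52 (adjusted p = 0.0322), Larp4b, an mRNA-binding protein, at 0.93 (adjusted p = 0.0368), Rptor at 0.68 (adjusted p = 0.0312) and Mtor, the kinase, at 0.60 (adjusted p = 0.0481). The list's median for that difference was −0.02 with the length trend removed. The row of Fau, a ribosomal protein that the name rule misses, ranged from 1.44 to 12.9 FPKM.

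Markers of other cell types moved with some of these comparisons. The 4 endothelial markers with a row (of 5) summed to 323 to 348 FPKM in the sham LV and 271 to 301 in the VO LV, with 234 to 257 in the sham RV and 233 to 290 in the VO RV, and Tie1, Emcn and Kdr passed as higher in the sham LV. The 3 red blood cell markers with a row (of 6) summed to 2113 to 4782 FPKM in the sham LV, highest in replicate 2, and 1658 to 2405 in the VO LV, with 1131 to 2236 in the sham RV and 1098 to 2447 in the VO RV. The sum of 5 macrophage markers was 34.8 to 37.9 FPKM in the sham LV and 31.1 to 33.8 in the VO LV, with 27.9 to 34.8 in the sham RV and 35.1 to 55.0 in the VO RV, where replicates 2 and 3 were the highest of all libraries. Of 6 fibroblast markers, 5 had lower values in VO LV than in VO RV (median −0.55, 4 of them with a fold over 1.3 by the unadjusted p, 0 called by limma), and their sum was 1854 to 2247 FPKM in the VO LV and 2197 to 4240 in the VO RV, highest in replicate 2. In the sham LV it was 2273 to 2505 FPKM and in the sham RV 2444 to 3211. All 5 cycling-cell markers had positive values with VO in the RV (median 0.33, 1 by the unadjusted p, 0 called), with sums of 87.7 to 97.3 FPKM in the sham RV and 108 to 126 in the VO RV, against 83.6 to 108 in the sham LV and 94.6 to 114 in the VO LV. In the difference of the responses, Myh6, Myh7 and Ryr2 of the 7 cardiomyocyte markers were higher, with 5 of the 7 positive and 2 negative, and C1qb of the 5 macrophage markers was lower. All 7 cardiomyocyte markers had higher values in VO LV than in VO RV (median 0.34, 3 by the unadjusted p, 0 called). With VO in the LV their median was 0.40, with 5 positive, 3 of them by the unadjusted p and 0 called. Between the sham ventricles their median was −0.14, with 3 of the 7 higher in the sham LV and 4 lower. Of these only Ryr2 was called by limma, lower in the sham LV (−0.94, adjusted p = 0.0356). The part of these markers in the ribosomal protein differences was not tested.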

How the data were processed

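Members and gene lists were chosen with earlier results of these data known. The authors removed low-quality reads, aligned the rest with HISAT2 2.0.5, counted reads per gene with featureCounts 1.5.0-p3, and deposited FPKM for each library; polyadenylated RNA had been selected. The genome build is not given in the sources used here. The authors called DEGs with DESeq2 on counts, which was not run here, since the main fit was planned for the deposited unit, FPKM. Multiplied by gene length, 100% of values under 200 reads were whole within 0.02 in every library, which gave the reads on genes.

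The fit took log2(FPKM / size factor + 0.5), with size factors from 1.0018 to 1.0071 (median of ratios). The 13910 genes that averaged 0.5 FPKM or more were fitted in R 4.3.3 with limma 3.58.1 (eBayes with trend), all 12 libraries in 1 model of 4 groups, adjusted by Benjamini-Hochberg over all tested genes. A fold change is on the log2(FPKM + 0.5) scale and understates low genes. Calls used the study's thresholds, adjusted p below 0.05 with the fold above 1.3. The exact permutation test (scipy 1.17.1) was two-sided. Tested on simulated data (VO LV against sham LV, 13910 genes, 200 changed), the fit called 78 of 98 genes changed 2-fold, 93 of 102 changed 4-fold and 9 unchanged genes.

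Named members were the highest and lowest by level, up to 5 called members per direction, the 3 largest differences each way among rows of at least 1 FPKM, fixed paralog pairs and members with known roles. Rpl26 in sham LV against sham RV, the rows counted without overlap (Rpl7l1 included) and those out of proportion in single libraries were named after their values were seen. Rows that share a symbol are told apart by identifier. Promoter sequences are RefSeq, build GRCr8, matched by symbol. The other settings tried were quantile normalization or no rescaling, a pseudocount of 0.1 or 1, other filters (any gene above 0, at least 1 FPKM on average, protein-coding only), each library's length trend removed (lowess, span 0.3), separate fits of 6 libraries, a replicate block, robust eBayes, voom on the recovered reads, other thresholds, and each library left out in turn. Some rows and the results that need them are not reported here. Spread is given as SD over libraries.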

Additional observations from a re-analysis of the deposited data

Results flagged for a closer look

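The response to VO differed between the ventricles, by the interaction term of the limma model, for 4 ribosomal protein rows. The LV response minus the RV response was −0.91 on the log2 scale for Rpl37 (adjusted p = 0.0249), −0.86 for Rps29 (adjusted p = 0.0315), −0.73 for Rpl26 (adjusted p = 0.0329) and −1.12 for Rpl5l1 (adjusted p = 0.0455). With each library's length trend removed the values were −0.65 for Rpl37 (adjusted p = 0.0309), −0.58 for Rps29 (adjusted p = 0.0534), −0.63 for Rpl26 (adjusted p = 0.0421) and −0.97 for Rpl5l1 (adjusted p = 0.0561). Of the 12 fits that each left out 1 library, Rpl37 passed in 6 and the other three in 4 each, with the same direction in all 12. When all genes above 0 were tested, 0 members passed (smallest adjusted p = 0.0540). Single outlying samples were not tested for in these groups of 3 libraries.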

How the results depend on the processing

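No result for the number of called members reversed, but the counts depended on the tested genes and the spread. Against 6 in sham LV against sham RV and 4 in the difference of the responses, testing all genes above 0 gave 0 and 0 calls (8 and 21 of all 21603 genes), the separate fit of 6 libraries gave 2 in the former, removing the length trend gave 2 in the latter, and voom on the recovered reads gave 8 in the latter. Over all 13910 tested genes the separate fit, the removal of the trend and voom gave 314, 393 and 802 calls there. The main fit gave 537 and 583. At an unadjusted p with a fold over 1.3 the counts were 19, 18 for VO LV against sham LV, 9 for VO RV against sham RV, 3 for VO LV against VO RV and 45 for the difference. In that order they were 12, 6, 7, 3 and 18 with the length trend removed and 12, 8, 9, 4 and 22 after quantile normalization. Over all 13910 tested genes the main counts were 2478, 2185, 683, 1030 and 3208. They were 2350, 2032, 628, 1012 and 3055 with the length trend removed, and 2474, 2131, 686, 1014 and 3203 after quantile normalization. In both settings the share of the 99 members was below that of all tested genes except in VO RV against sham RV. With the replicate block, 0 and 0 members were called in the first and the last, against 3 and 1 of 13910 tested genes. The replicate numbers did not pair the libraries, since correlations of same-numbered libraries were −0.28 to 0.12. Leaving out 1 library gave 0 to 8 member calls in sham LV against sham RV, 0 to 1 in VO LV against sham LV, 0 to 0 in VO RV against sham RV and in VO LV against VO RV, and 0 to 17 in the difference. Over all tested genes these fits gave, in that order, 0 to 872, 0 to 555, 0 to 1, 1 to 48 and 0 to 1004 calls. Quantile normalization moved the member medians to 0.10, −0.15 and −0.26 in sham LV against sham RV, VO LV against sham LV and the difference, and removing the length trend moved them to 0.10, −0.14 and −0.26; in 53 other such values and in all 60 with 1 library left out they moved by less than 0.10 log2 units, the SD between libraries of a group. Of the recovered reads, members took 2.97% with sham and 2.47% with VO in the LV, 2.50% with sham and 2.86% with VO in the RV, and of nuclear protein-coding FPKM, in that order, 9.72, 8.34, 8.62 and 9.62%. The planned share with ribosomal proteins outside the name rule is not reported here. The direction reversed for Rpl39l in sham LV against sham RV, 0.16 without sham LV replicate 3 (range −0.92 to 0.16), and for Rpl31 in VO LV against sham LV, −0.40 without sham LV replicate 2 (range −0.40 to 0.77). The cause of these changes was not tested, apart from fewer samples where a library was left out. Rows near 1 FPKM rest on few reads.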
